A study of Mus musculus with 2 samples.

Results

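The chromatin modifiers and remodelers of the mouse uterus were examined on gestational day 4 in 2 whole-uterus RNA-seq libraries, 1 of the Mettl14 f/f genotype and 1 of the Mettl14 d/d genotype. They were chosen by gene symbol alone: histone methyltransferases, demethylases, acetyltransferases and deacetylases, sirtuins, Polycomb and chromobox genes, DNA methylation enzymes, ATP-dependent remodelers, ARID and bromodomain genes and arginine methyltransferases. This gave 153 of 55363 genes, each from a single row of the files, and 133 of them are annotated as protein-coding. Both libraries came from pregnant females aged 6 to 8 weeks that had been mated with fertile males. The labels name neither the mouse strain nor the cells in which Mettl14 was removed, nor do they say whether a library is 1 animal or a pool. In common notation f stands for a floxed and d for a deleted allele. Mettl14 itself, part of the enzyme that methylates adenosines in RNA, stood at 13.6 FPKM in f/f against 3.21 in d/d. With 1 library per genotype no value has a replicate error and no difference has a test, so "higher" and "lower" compare these libraries.

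Chromatin enzymes add or remove acetyl and methyl groups on histone tails and on DNA, reader proteins bind those marks, and remodelers use ATP to slide or evict nucleosomes. Polycomb group complexes keep developmental genes silent, while SWI/SNF and the acetyltransferases open regulatory DNA. In the uterus these activities act with the steroid receptors, which recruit acetyltransferases and SWI/SNF to hormone-responsive genes.

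Most chromatin genes had nearly the same level in both libraries. Of the 153 genes, 132 reached 1 FPKM (a read density corrected for gene length and library size) in at least 1 library. A gene was called when d/d differed from f/f by a log2 ratio of 1 or more in either direction, computed on FPKM + 1, which corresponds to 2-fold on this scale. By this limit 3 chromatin genes were higher in d/d (Cbx8, Chd7 and Chd9) and 4 were lower (Smarca1, Arid5a, Smarca2 and Setd4). Among all 16263 genes that passed the same filter, 10.2% were higher and 8.28% were lower. In all, 7 of 132 chromatin genes (5.30%) were called, against 18.4% of all genes. Among the 12749 genes that reached 5 FPKM the shares were 9.89% higher and 7.22% lower, together 17.1%, and 5.60% of the 125 chromatin genes that did so were called. Differences of less than 1.5-fold were found for 108 of the 132 (81.8%), against 63.4% of all genes. The median log2 ratio was -0.03 for the chromatin genes and -0.01 for all genes. The middle 50% of the chromatin genes lay between -0.28 and 0.23, that of all genes between -0.41 and 0.41. Summed over the 132 genes, the level came to 3841 FPKM in f/f against 3829 in d/d. The order of levels was also close, with a Spearman rho of 0.93 over the 132 genes and 0.88 over all genes, values across genes, which are not independent replicates. The filter removed 21 genes under 1 FPKM in both libraries, and without it no further chromatin gene was called.

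**Figure D1:**
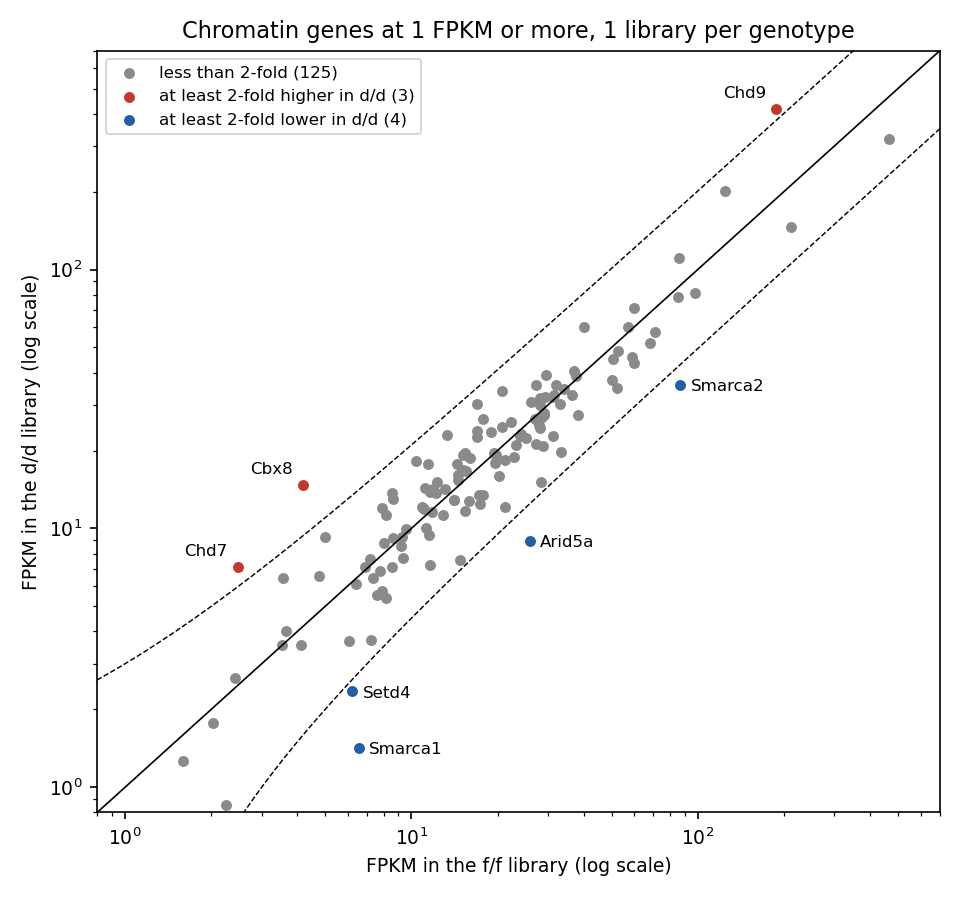
Each point is 1 of the 132 chromatin genes that reached 1 FPKM in either library, with its FPKM in f/f on the horizontal axis and in d/d on the vertical axis, both on log scales. The solid line marks equal levels and the dashed lines a 2-fold difference on FPKM + 1. The 125 grey points lie between the dashed lines, 3 genes lie above and 4 below.

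**Figure D2:**
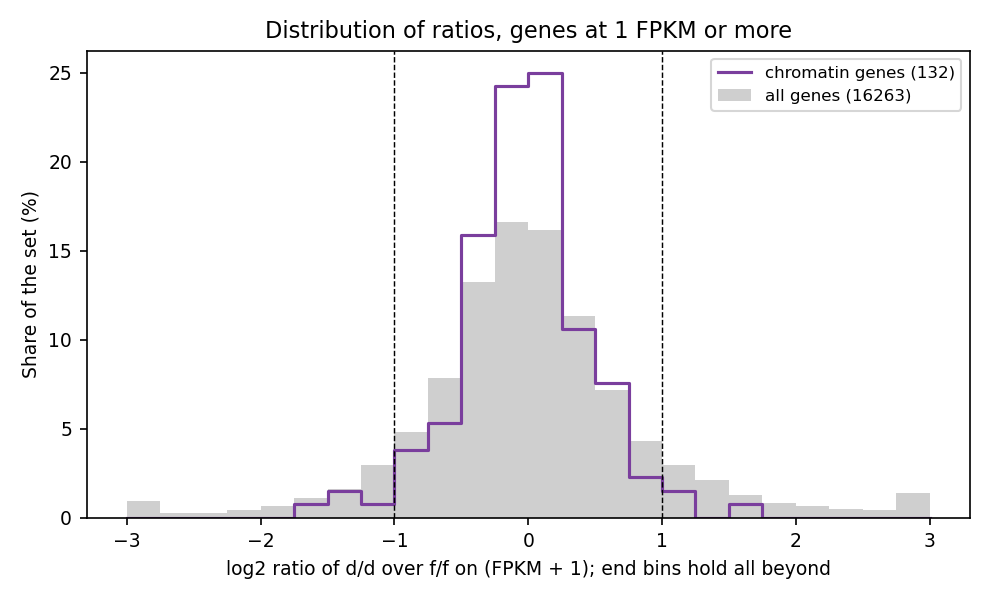
Bars give the share of all 16263 genes, and the line the share of the 132 chromatin genes, in each bin of the log2 ratio (d/d to f/f, on FPKM + 1), with all values beyond the axis in the end bins. Dashed lines mark the 2-fold limits. The line is taller than the bars around 0 and shorter in both tails.

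Cell type markers were called far more often, 43 of the 67 that reached 1 FPKM, and summed levels below are over those. Of 8 epithelial markers 7 were higher in d/d, and their summed level was 252 FPKM in f/f against 1922 in d/d. The markers of stroma (6 of 8 lower, summed 3801 and 2006 FPKM), smooth muscle (2 of 7 lower, 4911 and 3206), endothelium (4 of 7 lower, 352 and 166), natural killer cells (6 of 6 lower, 190 and 4.05) and glands (3 of 6 lower, 1815 and 15.7) went the other way. The lower gland genes were Prss28, Prss29 and Spink1, at 278, 943 and 578 FPKM in f/f, which made up nearly all of the gland sum. Prss28 and Spink1 were listed at 0 in d/d. The other gland genes were not called. Foxa2 was 5.11 FPKM in f/f against 3.56 in d/d, Cxcl15 had a log2 ratio of -0.58, and Sox9 was 8.19 and 10.95 FPKM. Macrophage and neutrophil markers were higher in d/d (5 of 7 higher, 429 and 1087 FPKM). So were T and B cell markers (4 of 7 higher, 9.78 and 57.5) and fat cell markers (3 of 5 higher, 2.96 and 101). The neutrophil gene Ly6g reached 9.52 FPKM in d/d, with a listed 0 for f/f. Plin1 and Lep also had a listed 0 for f/f. Their d/d values of 0.937 and 0.0145 FPKM did not pass the filter, and neither gene was called. Of 10 proliferation markers 3 were lower and none was higher, with summed levels of 746 and 409 FPKM. In whole tissue, fewer cells of a type and less RNA per cell cannot be told apart, and the part of these markers in the differences below was not tested.

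A fold given beside the levels of a single gene is a plain ratio of FPKM. Log2 ratios, the 2-fold and 1.5-fold limits and every count of genes use FPKM + 1, which gives smaller differences for low genes. On GRCm38, the assembly also called mm10, the 7 called genes are annotated as follows. Smarca2 spans chr19:26605050-26778322 on the plus strand, Smarca1 chrX:47809368-47892974 on the minus strand, Arid5a chr1:36307733-36324029 on the plus strand and Setd4 chr16:93583457-93604063 on the minus strand. Chd7 spans chr4:8690406-8867659 and Chd9 chr8:90828352-91054516, both on the plus strand, and Cbx8 chr11:119036305-119040969 on the minus strand. Each of the 7 is protein-coding. The genes annotated within Smarca2, Setd4 and Chd9, such as antisense transcripts, were all under 1 FPKM in both libraries.

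The ATPases of nucleosome remodelers held the 2 largest shifts within the SMARC genes. Smarca2 encodes BRM, one of the alternative motor subunits of SWI/SNF. It was 87.0 FPKM in f/f against 35.9 in d/d, 2.42-fold lower, with a log2 ratio of -1.25. Its paralog Smarca4, which encodes the other motor, BRG1, was 28.9 FPKM in f/f against 27.8 in d/d. The share of Smarca2 in the summed FPKM of both motors was thus 75.0% in f/f against 56.3% in d/d, and Smarca2 was the more abundant in both. Smarca1 and Smarca5 encode the motors of the ISWI remodelers, SNF2L and SNF2H. Smarca1 was 6.55 FPKM in f/f against 1.42 in d/d, 4.61-fold lower (log2 ratio -1.64), and 485 of the 16263 genes had a ratio at least as low. Smarca5 was 9.34 FPKM in f/f against 7.69 in d/d, so the share of Smarca1 in the pair was 41.2% and 15.6%. A processed copy of Smarca5 is listed at 3.52 and 3.56 FPKM, and added to Smarca5 it gave 12.9 and 11.3. That sum runs over transcripts of unlike length, so it is not a level of Smarca5. The share that leaves this copy out is therefore uncertain. Both remodeler families thus had 1 motor gene that was lower in d/d beside 1 that was not called.

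None of the other SMARC genes, most of which encode structural subunits of SWI/SNF, was called. The core subunit gene Smarcb1 was 50.8 FPKM in f/f against 45.2 in d/d, and the scaffold genes Smarcc1 and Smarcc2 were 27.3 and 21.3, and 31.4 and 32.9. Smarcd2 was the most abundant of the exchangeable Smarcd subunits in both libraries, at 71.1 FPKM in f/f against 57.6 in d/d. Smarcd1 (11.8 and 11.5 FPKM) and Smarcd3 (17.4 and 12.5) were lower in level. Smarce1 was 28.1 and 32.0 FPKM, and Smarcal1, a DNA-annealing helicase that restarts replication forks, had the highest log2 ratio of the 13 SMARC genes at 0.28. In all, 2 of the 13 were lower, none was higher, and the median log2 ratio was -0.16.

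Among the ARID genes, Arid5a stood at the lower end. Arid5a encodes an RNA-binding protein known to stabilise inflammatory mRNAs, and it was 25.9 FPKM in f/f against 8.98 in d/d, 2.89-fold lower (log2 ratio -1.43). Arid5b, a cofactor of the demethylase Phf2, was 15.9 FPKM in f/f against 12.8 in d/d, so that Arid5a was the larger of the pair in f/f (62.0%) and the smaller in d/d (41.3%). Arid1a and Arid1b encode the alternative DNA-binding subunits of the canonical SWI/SNF complex. Arid1a was 17.0 FPKM in f/f against 23.8 in d/d, the highest log2 ratio of the group at 0.47, whereas Arid1b, the most abundant member, was 29.1 and 27.4. Arid2, the subunit of the PBAF form, was 11.9 and 14.2 FPKM. Of the 9 ARID genes that passed the filter 1 was lower and 8 were not called, and Arid3c was listed at 0 in both libraries.

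Upstream windows of 3 genes are shown to place 2 of the lower genes beside a motor gene with equal levels. They hold the 250 bases before the RefSeq start of Smarca1, Arid5a and Smarca4 on GRCm38.p6, 5′ to 3′ on the strand of the gene, with each CG dinucleotide, the site of DNA methylation, in capitals. No base of them lies in an exon of the GENCODE M21 annotation, and the Smarca1 window lies within the annotated gene, in an intron.
Smarca1, chrX:47892614-47892863, minus strand: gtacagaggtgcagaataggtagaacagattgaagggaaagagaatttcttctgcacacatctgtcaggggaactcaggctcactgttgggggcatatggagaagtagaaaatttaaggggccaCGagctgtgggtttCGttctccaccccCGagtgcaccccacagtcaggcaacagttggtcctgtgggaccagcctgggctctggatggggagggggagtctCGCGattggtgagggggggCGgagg
Arid5a, chr1:36307483-36307732, plus strand: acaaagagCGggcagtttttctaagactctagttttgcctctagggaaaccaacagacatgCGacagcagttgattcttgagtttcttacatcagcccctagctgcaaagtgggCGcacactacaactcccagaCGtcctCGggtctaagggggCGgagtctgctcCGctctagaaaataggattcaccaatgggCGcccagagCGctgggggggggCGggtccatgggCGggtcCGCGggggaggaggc
Smarca4, chr9:21615919-21616168, plus strand: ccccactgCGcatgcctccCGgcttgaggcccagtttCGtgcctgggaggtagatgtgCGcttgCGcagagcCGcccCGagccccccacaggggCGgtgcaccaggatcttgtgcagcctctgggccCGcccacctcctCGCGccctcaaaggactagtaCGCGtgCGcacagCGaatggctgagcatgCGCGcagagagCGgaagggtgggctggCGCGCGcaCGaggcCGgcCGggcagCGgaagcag
The windows held 6, 13 and 25 CG dinucleotides. At least as many were present in 50.5%, 31.8% and 10.3% of 27025 promoters of the same length, and in 93.2%, 76.7% and 29.1% of the 103 chromatin genes with a promoter in the table. Over the 300-base windows that reach 50 bases past the start, the chromatin genes had a median of 23 CG and the 11251 matched genes of the filtered set a median of 20. Among the called genes the windows held 9 in Smarca1, 19 in Chd9, 22 in Arid5a, 24 in Cbx8, and 29 each in Setd4 and Smarca2. Chd7 had no entry. The methylation of these windows was not measured.

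Of the 14 role groups, the CHD remodelers had the smallest share of genes that differed by less than 1.5-fold, 3 of 8. Chd7, the remodeler mutated in CHARGE syndrome, was 2.47 FPKM in f/f against 7.11 in d/d, 2.87-fold higher (log2 ratio 1.22). Chd9 was the most abundant CHD gene in both libraries at 188 FPKM in f/f against 418 in d/d, 2.22-fold higher (log2 ratio 1.15). Its annotated transcripts run from 259 to 12008 nt, and FPKM of gene models with very short transcripts is uncertain, so the values of Chd9 are uncertain. The same limit touches 7 of the other protein-coding chromatin genes, Cbx7, Dnmt3l, Hdac11, Kat6b, Kdm3b, Kdm4b and Setd3, which have a transcript shorter still and were not called. Chd3 and Chd4 are the alternative motors of the NuRD deacetylase complex and had ratios of opposite sign, with 124 and 201 FPKM for Chd3 and 59.2 and 45.8 for Chd4. The share of Chd3 in the pair was 67.8% in f/f against 81.5% in d/d. Chd2, which deposits the histone variant H3.3, was at the lower end with 21.2 and 12.1 FPKM (log2 ratio -0.77). Chd8 and Chd1 were nearly level, at 27.1 and 26.6, and 14.0 and 12.9 FPKM. Of the 8 CHD genes that passed the filter, 2 were higher and none was lower. Chd5, best known from neurons, stayed under 0.1 FPKM in both.

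Among chromobox genes, Cbx8 had the highest ratio of all 132. Cbx2, Cbx6, Cbx7 and Cbx8 encode alternative readers of methylated histone H3 in Polycomb repressive complex 1. Cbx8 was 4.20 FPKM in f/f against 14.8 in d/d, 3.52-fold higher (log2 ratio 1.60, reached or passed by 733 of the 16263 genes). Its alternative Cbx7, which has a very short annotated transcript and so an uncertain value, was 8.13 FPKM in f/f against 5.36 in d/d, which made Cbx7 66.0% of the pair in f/f against 26.7% in d/d, the widest change in share among 26 gene pairs. Cbx2 (6.88 and 7.11 FPKM) and Cbx6 (52.8 and 48.4) were level. The heterochromatin protein genes Cbx1, Cbx3 and Cbx5 were 57.0 and 59.9, 52.3 and 34.8, and 36.3 and 32.9 FPKM. The value of Cbx3 is uncertain, because 8 processed copies of it are listed as separate genes and summed to 272 FPKM in f/f against 189 in d/d. Added together, Cbx3 and these copies came to 324 and 224 FPKM, a log2 ratio of -0.53 beside -0.58 for Cbx3 alone. FPKM is corrected for length, and the copies Cbx3-ps6 and Cbx3-ps7 are 552 nt against up to 2926 nt for Cbx3. The sum is therefore not a level of Cbx3.

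Polycomb repressive complex 2 writes the repressive trimethyl mark on lysine 27 of histone H3. Its core genes were not called in either direction. The catalytic subunit Ezh2 was 28.7 FPKM in f/f against 20.8 in d/d (log2 ratio -0.45), and its alternative Ezh1, typical of non-dividing cells, was 16.0 and 18.8 (log2 ratio 0.22). Ezh1 made up 35.8% of the pair in f/f against 47.5% in d/d. The most abundant subunit gene, Eed, was 34.2 and 34.7 FPKM and Suz12 was 19.6 and 17.8. The shift between the Ezh genes went with the lower proliferation markers given above. All 10 of these had log2 ratios below 0, but only 3 were called. They ranged from Rrm2 (log2 ratio -1.98) to Mcm2 (-0.19), with Top2a at 110 and 46.1 FPKM and Mki67 at 30.1 and 23.9. What part the markers have in it was not tested.

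DNA methylation genes had ratios on both sides of 0, and none was called. Dnmt1, which copies methylation after replication, was 33.3 FPKM in f/f against 19.7 in d/d (log2 ratio -0.73). Its recruiting partner Uhrf1 was close to it in both libraries, at 32.6 and 20.1 FPKM (log2 ratio -0.67), and the replication clamp Pcna was 89.6 and 46.0. The enzymes that set new methylation were level, with Dnmt3a at 15.2 and 16.8 FPKM and Dnmt3b at 2.42 and 2.64, and Dnmt3a made up 86.3% and 86.4% of that pair. Dnmt3l, a cofactor without catalytic activity, was 6.04 and 3.66 FPKM. Of the dioxygenases that oxidise methylcytosine, Tet1 was 2.25 FPKM in f/f against 0.857 in d/d, 2.63-fold lower as a plain ratio but with a log2 ratio of -0.81 on FPKM + 1. Tet2 (3.56 and 6.41 FPKM, log2 ratio 0.70) and Tet3 (7.92 and 12.0, log2 ratio 0.54) had ratios of the opposite sign. With a pseudocount of 0.1 FPKM in place of 1, Tet1 became the single further gene past the 2-fold limit. Only 3 of the 7 genes of this group that passed the filter differed by less than 1.5-fold on FPKM + 1, and Dnmt3c was listed at 0 in both libraries.

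Genes for methyltransferases of lysine 4 of histone H3 all differed by less than 1.5-fold. This lysine carries a mark of promoters and enhancers. The group held 8 genes, among them Kmt2e, a relative not known to have that activity, and had log2 ratios from -0.26 for Kmt2d (11.5 and 9.45 FPKM) to 0.16 for Kmt2b (12.2 and 13.8). The most abundant of them, Setd7, was 28.1 FPKM in f/f against 24.5 in d/d. Setd1a and Setd1b, catalytic subunits of complexes that methylate most active promoters, were in the same balance, with 62.8% and 62.6% for Setd1a. In the other SET group of 12 genes 1 was lower. Setd4, a less studied member, was 6.22 FPKM in f/f against 2.35 in d/d, 2.65-fold lower (log2 ratio -1.11), and was the called lower gene nearest to the limit. Setdb2 came next at 7.22 and 3.71 FPKM (log2 ratio -0.80). Heterochromatin writers had ratios on both sides of 0. Setdb1 (15.4 and 19.5 FPKM), Ehmt1 (22.3 and 25.8) and Ehmt2 (59.7 and 71.3) were above 0. Setdb2 was below 0, as were Suv39h1 (21.7 and 15.3 FPKM, log2 ratio -0.48) and Suv39h2 (-0.06), which lie outside the symbol rule. Setd2, the trimethylase of transcribed gene bodies, was 22.9 and 18.8 FPKM. Kmt5a, which monomethylates histone H4, was the most abundant and had the highest ratio of the group, at 86.3 and 111 FPKM (log2 ratio 0.36).

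Lysine demethylases leaned upward in d/d by small amounts. None of the 16 that passed the filter was called and all 16 differed by less than 1.5-fold, while 12 had log2 ratios above 0 and the median was 0.24. The median was 0.16 with both libraries rescaled to the same upper quartile, and the count of 12 held there. Kdm2b, which brings a form of Polycomb complex 1 to unmethylated CG islands, led at 17.9 FPKM in f/f against 26.5 in d/d (log2 ratio 0.55). Kdm4b, a demethylase induced by estrogen and hypoxia in other tissues, was 8.66 and 13.0 FPKM. Kdm5c, the highest in mean level, was 29.5 and 39.2 FPKM, and Kdm2a was 31.9 and 35.9. Kdm1a, the demethylase LSD1 of the CoREST complex, was 26.3 and 30.8. The lowest ratio was that of Kdm8, at 4.10 and 3.55 FPKM. Kdm6a and Kdm6b, which remove the Polycomb mark, were 20.7 and 24.6, and 9.19 and 8.52 FPKM. Kdm4d stayed under 1 FPKM in both libraries.

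Zinc-dependent histone deacetylases leaned the other way. Of 11 genes 9 had log2 ratios below 0, none was called and the median was -0.33. That count was the same after each rescaling. Hdac8, a deacetylase of cohesin, was 14.8 FPKM in f/f against 7.56 in d/d (log2 ratio -0.88), the lower gene that came nearest to the limit without passing it. Hdac2, the most abundant, was 97.9 and 81.5 FPKM, and Hdac1, its partner in NuRD and Sin3 complexes, was 20.2 and 15.9. A processed copy of Hdac1 is listed at 68.0 and 52.0 FPKM, so the value of Hdac1 alone is uncertain. Their sum was 88.2 and 67.9, again over transcripts of unlike length. Hdac3, the enzyme of the NCoR corepressor complex, was the highest of the group in ratio at 40.0 FPKM in f/f against 60.2 in d/d (log2 ratio 0.58). Hdac4 and Hdac5, of the class that shuttles between nucleus and cytoplasm, were 17.8 and 13.4, and 29.4 and 32.1 FPKM. Hdac6, the tubulin deacetylase, was 7.91 and 5.76.

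Sirtuins, which use NAD for deacylation, showed no common direction. Sirt5, a mitochondrial desuccinylase, was 4.98 FPKM in f/f against 9.24 in d/d (log2 ratio 0.78), and Sirt7, found in nucleoli, was 20.6 and 33.9 (log2 ratio 0.69). At the other end the mitochondrial deacetylase Sirt3 was 11.6 and 7.21 FPKM (log2 ratio -0.62). The most abundant, the cytoplasmic Sirt2, was 50.3 and 37.4. Sirt1 was 7.79 and 6.85 FPKM and Sirt6 10.9 and 12.2. None of the 7 was called, with a median of 0.15.

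No gene was called among the acetyltransferases and their readers, and 8 of the 10 acetyltransferase genes differed by less than 1.5-fold. The coactivators Ep300 and Crebbp, which steroid receptors recruit, were 13.1 and 14.2, and 8.02 and 8.78 FPKM, and Ep300 held 62.1% and 61.8% of their sum. Kat14, of the ATAC complex, was 17.0 FPKM in f/f against 30.4 in d/d (log2 ratio 0.80), the higher gene that came nearest to the limit without passing it, whereas Chd9 lay just past it. Kat6a was 13.3 and 22.9 FPKM (log2 ratio 0.74) beside its paralog Kat6b at 7.38 and 6.43. The lowest ratio belonged to Kat5, the TIP60 acetyltransferase, at 31.2 and 22.7 FPKM, and the highest mean level after it to Kat2a at 27.8 and 25.0. The bromodomain readers of acetylated histones were even closer, and all 7 differed by less than 1.5-fold. Brd2 was the most abundant at 85.6 and 78.3 FPKM, Brd1 had the highest log2 ratio at 0.39 (16.9 and 22.5 FPKM), and Brd9 the lowest at -0.13 (23.1 and 21.1).

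Arginine methyltransferases held the chromatin gene with the highest mean level, although Chd9 was above it in d/d. Prmt1, which makes most asymmetric dimethylarginine, was 467 FPKM in f/f against 318 in d/d (log2 ratio -0.55). Prmt5, the main enzyme of symmetric dimethylation, was 38.3 and 27.3 FPKM (log2 ratio -0.47). Prmt3, which methylates a ribosomal protein, was 28.3 and 15.1 FPKM, the lowest log2 ratio of the group at -0.87. Prmt9, which acts on a splicing factor, was 8.55 and 13.7 FPKM, the highest at 0.62. Prmt2 was level at 19.5 and 19.6. None of 7 was called, and Prmt8 was listed at 0 in both libraries.

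**Figure D3:**
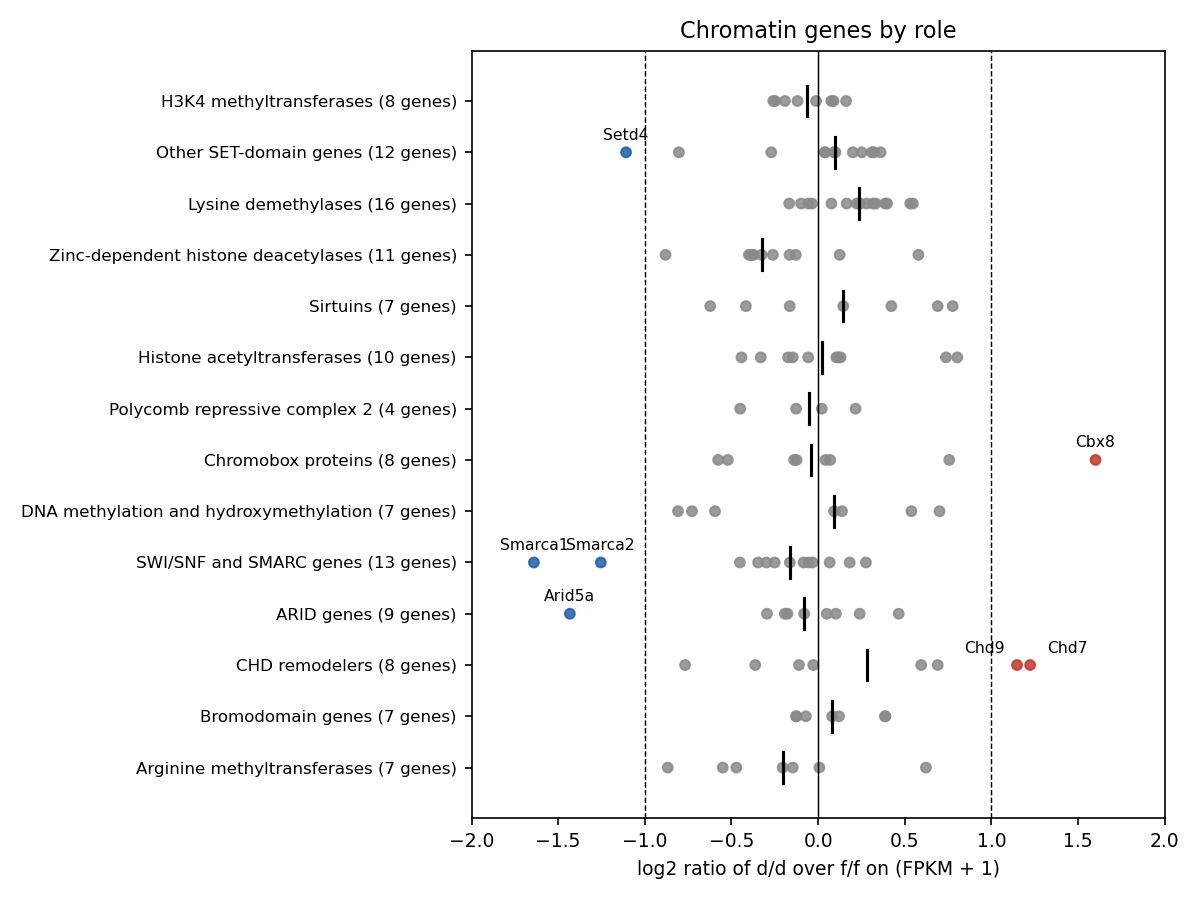
Each point is a protein-coding chromatin gene at 1 FPKM or more, placed by its log2 ratio (d/d to f/f, on FPKM + 1), 1 row per role group, with black ticks at the group medians and dashed lines at 2-fold. Red points are the 3 higher and blue points the 4 lower genes, all labelled. The demethylases sit mostly right of 0 (median 0.24) and the zinc-dependent deacetylases mostly left of it (median -0.33).

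Pairs of related genes differed widely in how far their balance moved. Over 26 pairs of paralogs or of genes in the same enzyme family, the share of the first gene moved by under 5 percentage points in 13, by 5 to 10 in 6 and by 10 or more in 7. The more abundant gene of the pair was the same in both libraries in 24 pairs, and the exceptions were Cbx7 with Cbx8 and Arid5a with Arid5b. The remaining pairs that moved by 10 points or more were those of Smarca1, Smarca2, Chd3, Ezh1 and Kat6a given above. Processed copies were left out of all shares, so those of the pairs with Hdac1, Cbx3 and Smarca5 are uncertain.

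**Figure D4:**
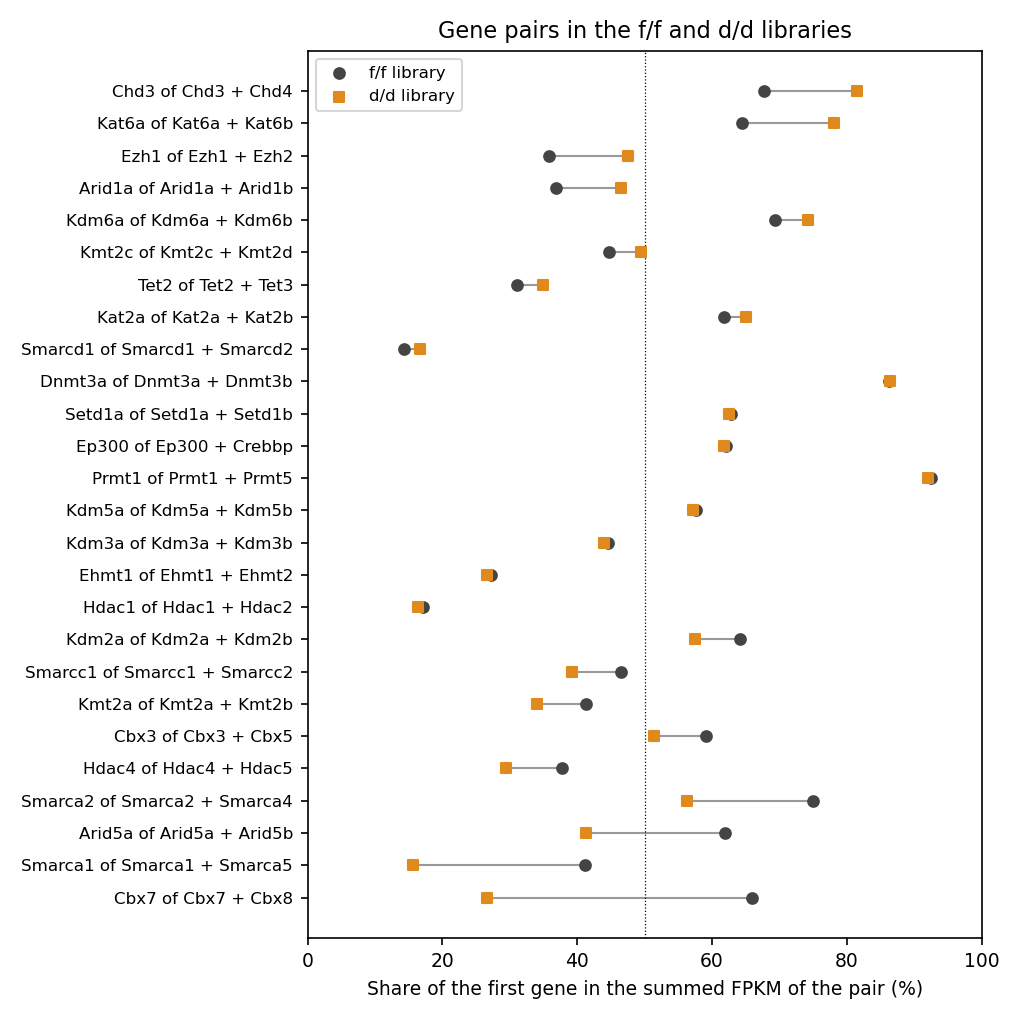
For each of 26 gene pairs the horizontal axis gives the share of the first gene in the summed FPKM of both, as a circle for the f/f library and a square for the d/d library. Processed copies are left out. Pairs are ordered by the difference between the libraries, from Chd3 with Chd4 (67.8% and 81.5%) at the top to Cbx7 with Cbx8 (66.0% and 26.7%) at the bottom.

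Genes for partners of these enzymes, listed from general knowledge, were also mostly level. Of 110 partner genes 107 passed the filter, 1 was higher and 2 were lower, beside 10.2% and 8.28% of all genes, and their median log2 ratio was -0.06. No gene was called among 10 partners of the lysine 4 methyltransferases (median -0.20), 21 Polycomb partners (0.09), 19 of NuRD, Sin3 and CoREST (-0.06), 7 methyl-CG readers and maintenance genes (0.13), or 15 measured genes of the ISWI, INO80 and SRCAP remodelers (-0.07). The higher gene was Mecom, a SET-domain zinc finger factor, at 21.0 FPKM in f/f against 49.6 in d/d (log2 ratio 1.20). Npm1, a nucleolar histone chaperone, was 301 and 124 FPKM (log2 ratio -1.28). Dpf1, a subunit of the neuronal form of SWI/SNF, was 6.06 and 2.49 (log2 ratio -1.02). The lists that hold these called genes had medians below 0. The median was -0.34 for histone chaperones, with 8 of 10 genes below 0. For other SWI/SNF subunits it was -0.16 (10 of 13 below 0), and for other histone lysine methyltransferases -0.04 (7 of 12).

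Entries outside the role groups were 20 pseudogenes and antisense genes, of which 5 passed the filter and none was called. They included Cbx3-ps6 at 212 and 146 FPKM and Smarce1-ps1 at 33.0 and 30.3 FPKM, close to the level of Smarce1 itself. Processed copies can closely resemble their parent, but their sequences were not compared here. How the deposited values divide fragments between a copy and its parent is not given in the sources used here.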

How the data were processed

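RNA-seq of whole uterus gave 1 library per Mettl14 genotype. The authors deposited FPKM per gene. HISAT2 2.2.1, Cufflinks 2.2.1 and build mm10 are named in the submitters' processing notes, while the annotation release and strandedness were not given in the sources used here. The files hold 55483 rows. Rows that share a symbol were summed to 55363 genes, those that reached 1 FPKM in either library were kept, and log2 ratios (d/d to f/f) were taken on FPKM + 1, which understates differences of low genes. With 1 library per genotype there was no test, error or p-value.

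The files give no counts. Steps in the low values of genes with a single transcript of at least 2000 nt fitted about 17800000 fragments for f/f (70.7% of 870 values within 0.1 of a whole number) and 20900000 for d/d (66.6% of 901). By the longest transcript, the lowest called value, Smarca1 in d/d, stands for about 143 fragments. At that count, counting error was small beside its 4.61-fold difference. Setd4 in d/d stands for fewer, about 128 fragments, and its log2 ratio of -1.11 lies close to the limit. Whether counting error could carry Setd4 across the limit was not tested. Such counts are upper estimates, because shorter transcripts would give fewer fragments. Spread between animals is unknown.

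Positions, gene types and transcript lengths came from GENCODE M21 on GRCm38 (mm10), matched by gene ID for all 153 chromatin genes, and promoters from RefSeq on GRCm38.p6, matched by symbol for 103 of the 132. Named genes were those called, those with the highest mean and the extreme ratios of each role group, 26 gene pairs, called partners and Mettl14. Other values were named after they were seen, and some genes within the rule are not reported here. The members and lists were chosen with earlier results of these data known. The calculation was tested on simulated data of d/d against f/f over 16263 genes, in which 100% of 200 planted 4-fold differences were recovered. These lay well past the limit and only in genes with a mean of 5 FPKM or more. The simulation thus checks the code alone. It does not cover smaller differences or lower genes, such as Smarca1 (mean 3.99 FPKM), Setd4 (4.28) and Chd7 (4.79). Python 3.11.15, pandas 2.3.3 and matplotlib 3.10.9 were used.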

Additional observations from a re-analysis of the deposited data

How the results depend on the processing

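The 3 higher and 4 lower chromatin genes were the same genes, and no gene reversed, with no filter on low values, with a filter of 5 FPKM, with FPKM rescaled to TPM or to the same upper quartile, with ratios centred on the median, with the highest row kept for a symbol, and without entries that are not protein-coding. With a pseudocount of 5 FPKM, 2 genes were lower and 2 higher, because Smarca1 (log2 ratio -0.85), Setd4 (-0.61) and Chd7 (0.70) no longer passed 2-fold. By its construction a larger pseudocount shrinks the ratios of low genes. With 0.1 FPKM Tet1 was added to the lower genes. The share of chromatin genes called was 3.03% with 5 FPKM and 6.06% with 0.1 FPKM, against 8.66% and 24.3% of all genes. The median over the chromatin genes ranged from -0.11 to 0 over these settings. No paired analysis was possible because each genotype has 1 library. Transcript length differs between the sets, with a median longest transcript of 4920 nt for the chromatin genes and 2980.5 nt for all genes. Among the genes with the longest transcripts (above the upper quartile) 6.76% of 74 chromatin genes and 15.6% of 4060 genes were called. Strain, hormone state of the animals and the cell types behind a difference were not analysed here.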

Other observations

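Histone variant and linker histone genes, a list added after the data were seen and not chosen for how its members differed, had 7 of 12 members that differed by less than 1.5-fold. Of the 12 genes 3 were at least 2-fold lower in d/d on FPKM + 1 and none was higher (median log2 ratio -0.24), beside 8.28% and 10.2% of all genes. The linker histone gene H1f10 was 30.0 FPKM in f/f against 8.77 in d/d, 3.41-fold lower. H2ax, whose protein is phosphorylated at DNA breaks, was 155 and 72.1 FPKM. Macroh2a2, a variant of silent chromatin, was 19.2 and 8.22, whereas its paralog Macroh2a1 was 131 and 144. The H3.3 genes H3f3a and H3f3b were level, at 243 and 241, and 191 and 232 FPKM. H2aj had the highest ratio of the list, at 98.2 and 165 FPKM (log2 ratio 0.75). The replication-linked gene H1f2 was 39.5 and 19.6 FPKM, 2.01-fold lower as a plain ratio and just short of the limit on FPKM + 1 (log2 ratio -0.97).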
